A study of Mus musculus with 34 samples.

Results

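The genes followed here were those that mark the fetal liver or hold its programme in check after birth: Afp, Igf2, Gpc3, Dlk1, Zbtb20, Zhx2 and Alb, with H19 as the further gene sought. They were found by matching the RefSeq accession printed beside each array probe to a gene symbol. The match gave 7 of the 8 genes, through 8 of the 41174 different probes on the array, while 16535 genes had a probe in all. Igf2 had a pair of probes, which are given apart. No probe matched H19, which was not analysed here. The livers came from C57BL/6 mouse pups on postnatal day (PND) 15, a single age, so the fall of a fetal transcript over time was not followed and only its level at that age was compared between thyroid states.

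There were 4 treatments in each sex. Control pups (4 males, 4 females) came from untreated dams and were injected with saline. Hyper pups (5 males, 5 females) came from untreated dams and received 50 µg of thyroxine (T4) and 5 µg of triiodothyronine (T3) per 100 g of body weight. Hypo pups (4 males, 5 females) were nursed by dams given 0.05% methimazole, which blocks thyroid hormone synthesis, and 1% sodium perchlorate, which blocks iodide uptake, in the drinking water, and the pups were injected with saline. Hypo+ pups (4 males, 3 females) were nursed by dams on the same water and received 20 µg of T4 and 2 µg of T3 per 100 g. Every pup was injected into the peritoneum 4 h before its liver was taken. The drug exposure lasted days, so these were short perturbations imposed on pups that had developed until then with an untreated dam. The hypo+ pups were picked by the authors for a serum T4 near or slightly above that of the controls. Each array held the RNA of 1 pup, labelled with Cy5, against a universal mouse reference RNA labelled with Cy3, and each level below is log2 of Cy5 over Cy3 after loess normalization. Such a level is relative to the reference RNA, so it orders pups for a given probe and does not order genes. The labels do not name litters, and p-values cover the spread between these pups.

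Alpha-fetoprotein, the product of Afp, is the main plasma protein of the fetus, and its gene lies beside that of albumin, Alb, which takes over that role in the adult. The liver silences Afp after birth. Zbtb20 and Zhx2 are zinc finger and homeobox repressors known to hold Afp down in the adult mouse liver, and Zhx2 also acts on H19 and Gpc3. Igf2 is a fetal growth factor expressed from the paternal copy at an imprinted cluster that also holds the maternally expressed RNA H19. Gpc3 is a cell surface proteoglycan of growing tissues, and Dlk1 is an imprinted membrane ligand used as a marker of hepatoblasts, the progenitors of hepatocytes. In the RefSeq gene order of chromosome 5, Alb, Afp and Afm, all of the albumin family, follow each other.

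The promoters of the neighbouring genes Alb and Afp are shown because Afp had the largest difference between hypo and control in both sexes, while Alb, next to it, stood beside it as the adult counterpart. Each is the 250 bases before the gene start on the plus strand in RefSeq for GRCm38.p6, at chr5:90460620-90460869 for Alb and chr5:90490464-90490713 for Afp. Capitals mark GTTAAT, a core of the binding site of the liver factor HNF1, the CCAAT box and TATAAA, each searched on both strands.
Alb: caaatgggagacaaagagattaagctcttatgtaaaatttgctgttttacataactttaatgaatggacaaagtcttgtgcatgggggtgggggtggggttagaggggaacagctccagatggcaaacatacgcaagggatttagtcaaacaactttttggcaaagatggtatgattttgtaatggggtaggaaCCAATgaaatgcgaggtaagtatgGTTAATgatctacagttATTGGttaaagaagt
Afp: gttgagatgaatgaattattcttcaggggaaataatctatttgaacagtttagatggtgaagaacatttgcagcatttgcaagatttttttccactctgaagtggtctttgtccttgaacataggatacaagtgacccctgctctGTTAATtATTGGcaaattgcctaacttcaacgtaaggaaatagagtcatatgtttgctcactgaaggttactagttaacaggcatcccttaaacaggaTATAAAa
Both promoters held GTTAAT on the plus strand, its first base 32 bases before the gene start in Alb and 105 bases before it in Afp, and 6.43% of the 32851 mouse promoters of the same length held it. CCAAT, found in 33.8% of promoters, occurred at 2 places in Alb and 1 in Afp, and in the Afp promoter it lay on the minus strand just after GTTAAT without overlap. TATAAA, found in 12.4%, occurred in Afp only, 7 bases before the start. AGGTCA, a core of the sites bound by thyroid hormone and other nuclear receptors, was in neither window and in 14% of promoters. These letter matches describe the windows and say nothing of binding.

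Across the 34 arrays, 60.8 to 79.4% of spots were well above background in Cy5 and no spot was saturated there. The 8 arrays of 1 of the 6 scan days, 1 from each treatment and sex, stood apart: Alb lay at 4.54 to 5.2 on them and at 2.73 to 4.11 on the other 26, without overlap. On 4 arrays (control males 832 and 522, control female 831 and hypo+ female 543) the mean of 13 pancreatic acinar markers was 2.45 to 4.86, against 0.74 to 1.14 on the others, and 3 of these 4 belonged to that scan day. For some results below, values without 1 of these sets, or without each in turn, are therefore also given. Both exclusions were chosen after the data had been seen, and for the other results they are not given. All 7 hepatocyte markers were well above background on every array, with means of 4.59 to 6.08, and no gene of any marker list for other cell types passed the adjusted threshold of limma in any comparison. At an unadjusted p under 0.05, 12 of the 13 acinar markers were lower in hypo than in control males (median difference -2.01) and 12 in hyper than in control males (-1.96), with 3 and 1 lower in females (-0.96 and -0.69). In these comparisons 5.19% and 2.98% of all probes in males and 4.72% and 6.15% in females were under that p, in either direction. The treatment itself was visible in Dio1, the deiodinase that activates T4 and a direct target of T3, which averaged 5.84 in control males, 4.39 in hypo males, 6.21 in hyper males and 5.9 in hypo+ males, with 6.16, 4.39, 6.45 and 6.41 in females of the same order.

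No member probe passed an adjusted p of 0.05 in any of the 5 comparisons in either sex, by limma within each sex. In males, 0.0971% of all probes passed for hypo against control, 0.0753% for hyper against control, 0.0267% for hypo+ against control, 0.369% for hypo+ against hypo and 1.39% for hyper against hypo. In females the shares were 0.155%, 0.158%, 0.0219%, 0.556% and 2.5%. At an unadjusted p under 0.05, 4 of the 80 member values passed: Afp in hypo against control in both sexes, and Zbtb20 in hyper against hypo in males and in hyper against control in females. For all probes, the unadjusted shares in the 5 comparisons in the order above were 5.19%, 2.98%, 7.56%, 9.18% and 8.41% in males and 4.72%, 6.15%, 4.79%, 7.76% and 10.7% in females. The 4 of 80 values are a share near that background, and what follows describes sizes and intervals.

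**Figure D1:**
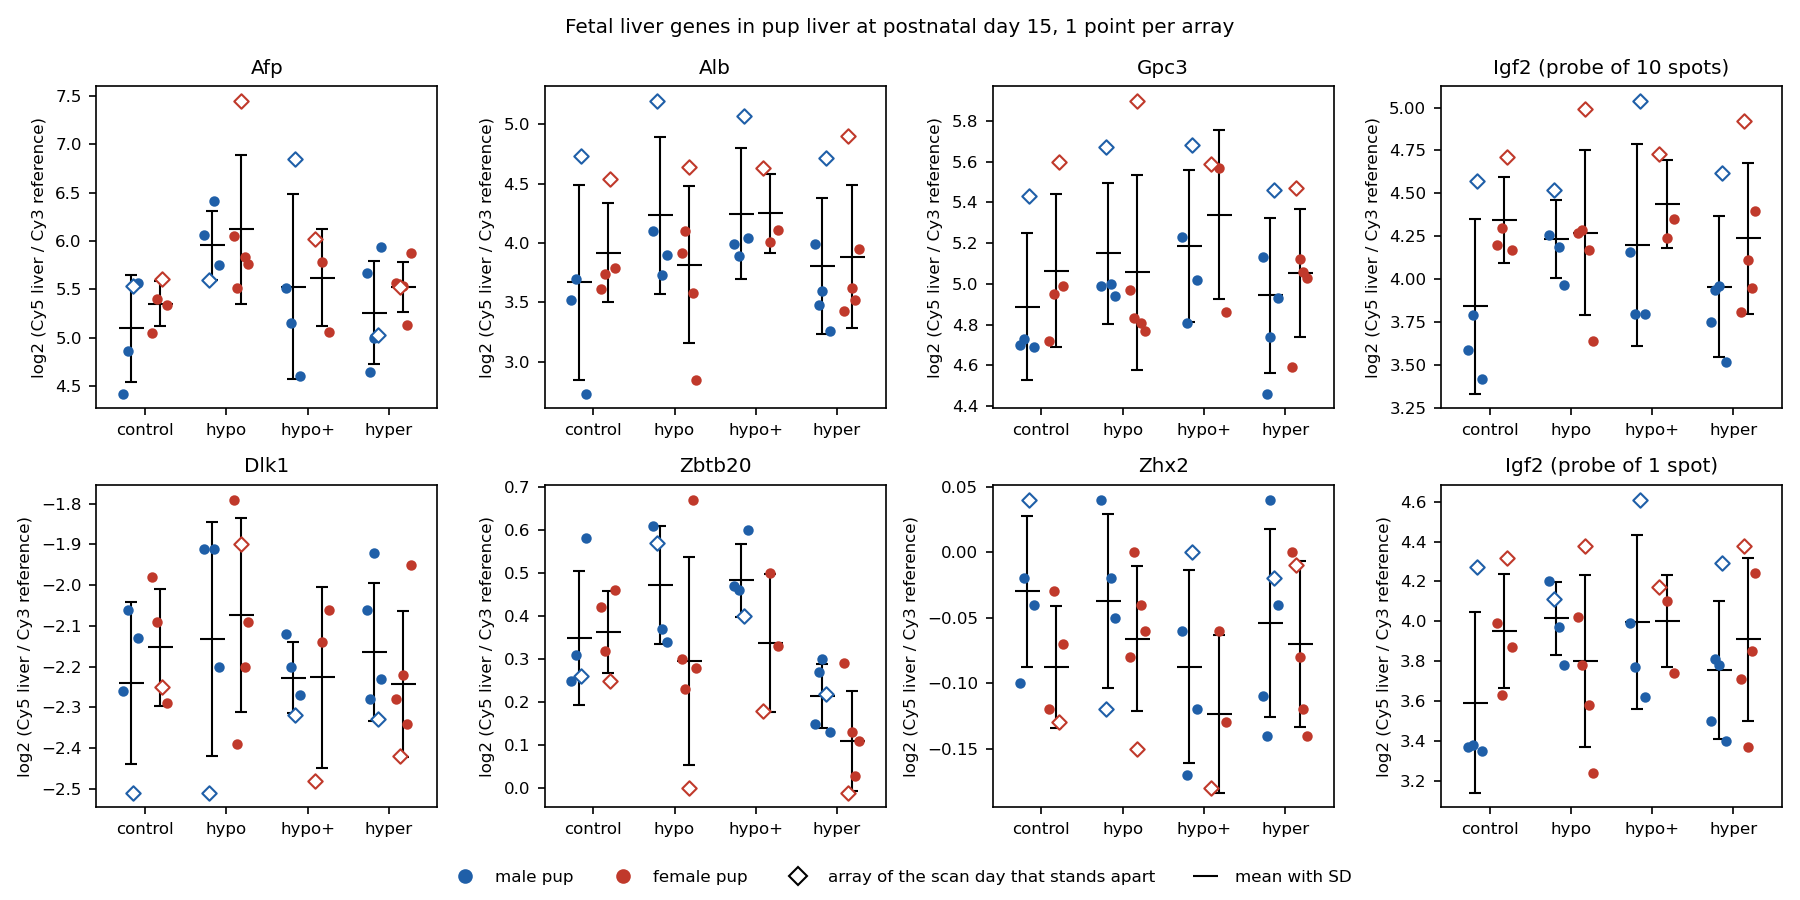
Level of each of the 8 member probes on every array, as log2 of Cy5 liver over Cy3 reference, by treatment, with males in blue, females in red, diamonds for the 8 arrays of the scan day that stood apart and a bar for the mean with its SD. Afp is highest in the hypo pups of both sexes (means 5.95 in males and 6.12 in females against 5.09 and 5.35 in controls), Zbtb20 is lowest in the hyper pups (0.21 and 0.11), and the diamonds top the panels of Alb and the 10-spot Igf2 probe.

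Afp had its highest mean level in the hypo pups of both sexes. In males it was 5.57, 5.53, 4.86 and 4.42 in the controls and 5.75, 5.6, 6.06 and 6.41 in the hypo pups. All 4 hypo males thus lay above all 4 control males, a separation that 3.09% of all probes showed in that comparison. In females Afp was 5.4, 5.61, 5.05 and 5.34 in the controls and 5.83, 7.45, 5.76, 6.05 and 5.51 in the hypo pups, so that 4 of 5 hypo females exceeded every control and 1 lay among them (1.77% of probes separated fully). In males, hypo exceeded control by a log2 difference of 0.861 (SE 0.399, 95% interval 0.017 to 1.706, a ratio of 1.82). In females the difference was 0.77 (SE 0.302, 0.13 to 1.41, a ratio of 1.71). The limma p was 0.046 in males and 0.0212 in females before adjustment and 0.949 and 0.831 after adjustment over all probes. The unadjusted male value was above 0.05 in 8 of the 17 fits that left out an array and was 0.0514 with normexp background correction, 0.115 after median centring and 0.0547 with the scanner's log ratio, while the female one was above it in 1 of 17. In a bulk liver sample, fewer cells that express a gene and less RNA of it per cell cannot be told apart.

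The size of the Afp difference depended on single pups. When each array was left out in turn, the male difference lay between 0.636 and 1.02 and the female difference between 0.439 and 0.923, the lowest female value being that without hypo female 721, whose 7.45 was the highest Afp level of all 34 arrays. Without the scan day that stood apart the difference was 1.125 in males (adjusted p = 0.627) and 0.527 in females (adjusted p = 0.667). Without the 4 arrays high in pancreatic markers it was 0.963 (adjusted p = 1) and 0.858 (adjusted p = 0.889). The direction was the same in each case. Of the 7 slides that carried both a hypo and a control pup, Afp was higher in the hypo pup on 7, by 0.07 to 1.83 with a mean of 0.66.

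The other treatments placed Afp between these groups. In hyper males it was 5.94, 5.03, 5.67, 5 and 4.64, and in hyper females 5.53, 5.52, 5.57, 5.87 and 5.13, within or close to the control ranges. In hypo+ males it was 6.85, 5.15, 4.6 and 5.51, the widest spread of any group (SD 0.96), and in hypo+ females 5.06, 6.02 and 5.78. The means therefore ran hypo, hypo+, hyper and control from highest to lowest in both sexes, at 5.95, 5.53, 5.26 and 5.09 in males and 6.12, 5.62, 5.53 and 5.35 in females. Each neighbouring pair in that order differed by less than the SD of 0.571 within groups. Against hypo, Afp was lower in hyper pups by -0.697 in males (SE 0.379, interval -1.498 to 0.104, adjusted p = 0.726) and -0.595 in females (SE 0.285, -1.198 to 0.008, adjusted p = 0.479), and lower in 8 of the 9 slides that held both. Against hypo, hypo+ differed by -0.426 in males (-1.27 to 0.419) and -0.502 in females (-1.199 to 0.194), and against control, hyper differed by 0.164 and 0.175. Without the scan day that stood apart, the hypo+ difference from hypo was -0.984 in males and -0.37 in females, with adjusted p of 0.302 and 0.679 in the limma fits. Over the 15 alternatives this difference ran from -0.984 to 0.078 in males, with a change of sign, and from -0.797 to -0.245 in females. Without hypo+ male 761 the male difference was -0.117.

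**Figure D2:**
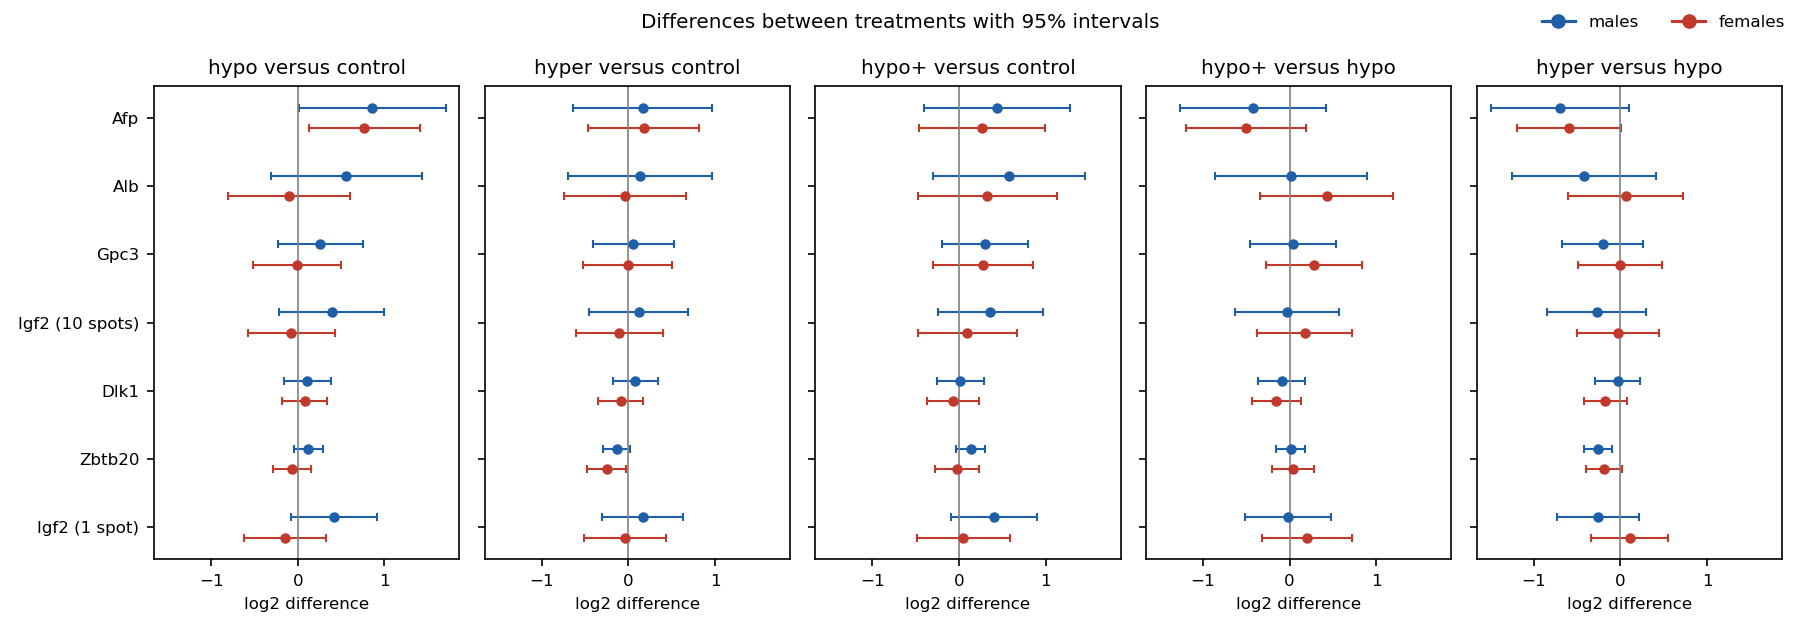
Difference in log2 level for the member probes other than that of Zhx2 in the 5 comparisons, with 95% intervals from the limma fits, males in blue and females in red. The Afp intervals for hypo against control lie just above 0 in both sexes (0.017 to 1.706 and 0.13 to 1.41), and those of Alb, Igf2, Gpc3 and Dlk1 cross 0 in every comparison.

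With both sexes in a single fit with sex as a term, Afp differed by 0.814 between hypo and control (adjusted p = 0.124, SE 0.25) and by -0.644 between hyper and hypo (adjusted p = 0.118, SE 0.236), where 1.28% and 6.26% of all probes passed. A male and a female may share a dam, so these arrays are less independent than those within a sex. The effect of hypo on Afp differed between females and males by -0.091 (SE 0.524, interval -1.163 to 0.98), which leaves room for a large difference either way. No probe of any gene passed the test of a sex difference in any of the 5 comparisons by limma, and 428 to 867 of the 41174 had an unadjusted p under 0.05, fewer than the 5% level itself would give.

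Afp also varied between pups of the same treatment. Over all arrays its Cy5 signal ranged from 19800 to 191000, 9.65-fold, while its reference signal ranged 2.11-fold. Its SD within groups was 0.571, scan days included, and 99.4% of 22222 detected probes had a smaller SD. The 10 spots of the probe, which share the RNA and the hybridization of their array, had a median SD of 0.041. Pup numbers sharing their first 2 digits tied 14 males to 14 females of the same treatment, and the labels do not say whether those pups were litter mates. Across these 14 pairs, the deviations of male and female Afp from their group means had r = 0.65 (permutation p = 0.00297, adjusted over 7 members 0.0208) and rho = 0.74 (permutation p = 0.0135, adjusted 0.0658). Among hypo pairs the male and female levels were 5.75 and 5.76, 5.6 and 5.51, 6.06 and 6.05, and 6.41 and 7.45. The hyper pairs stood at 5.94 and 5.87, 5.03 and 5.13, 5.67 and 5.57, and 4.64 and 5.52, the control pairs at 5.57 and 5.34, 5.53 and 5.61, 4.86 and 5.4, and 4.42 and 5.05, and the hypo+ pairs at 6.85 and 6.02, and 4.6 and 5.06. Of the 14 pairs, 7 differed by at most 0.1 and 6 by 0.46 to 1.04.

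The pairing did not hold under every treatment of the values. Without the 2 pairs farthest from the median r was 0.61, and leaving out each pair gave 0.59 to 0.8, with the adjusted permutation p above 0.05 without any of the 4 hypo pairs (0.0523, 0.0553, 0.058 and 0.0743). After centring within scan days r was 0.44 (adjusted permutation p = 0.322), and over the 11 pairs scanned on different days it was 0.66 (adjusted permutation p = 0.0864). With the authors' values it was 0.67 (adjusted permutation p = 0.0164) and with Cy5 alone 0.75 (adjusted permutation p = 0.0224). The other members had r of 0.6 for Dlk1, -0.63 for Zhx2, 0.27 for Igf2, 0.27 for Zbtb20, 0.11 for Alb and 0.08 for Gpc3, none with an adjusted permutation p under 0.05.

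**Figure D3:**
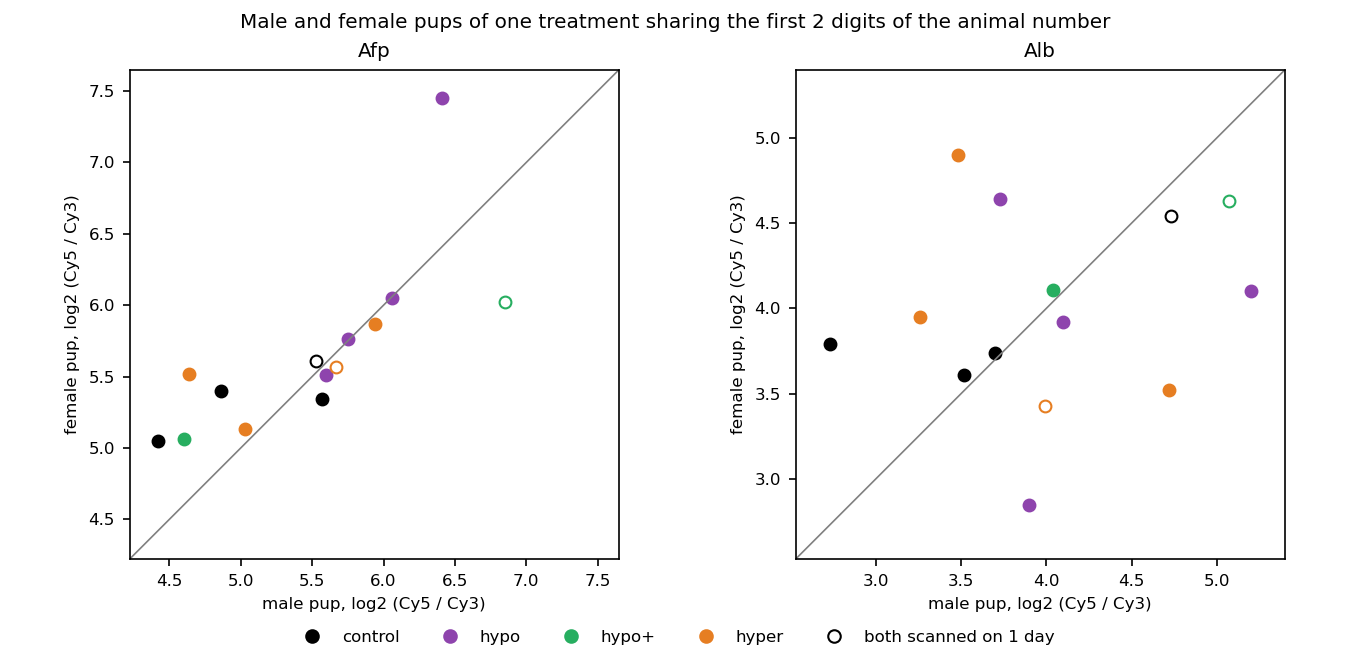
Log2 level in the male against that in the female pup for Afp and Alb in the 14 pairs whose animal numbers share their first 2 digits, coloured by treatment, with open points for the 3 pairs scanned on the same day and a diagonal at equal levels. In Afp, 7 of the 14 points lie within 0.1 of the diagonal and 6 lie 0.46 to 1.04 from it.

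Zbtb20, the zinc finger repressor of Afp, was lowest in the hyper pups of both sexes. In males its level was 0.13, 0.22, 0.15, 0.3 and 0.27 in hyper pups and 0.34, 0.57, 0.61 and 0.37 in hypo pups. The groups did not overlap, as was so for 3.87% of all probes in that comparison. In females it was 0.13, -0.01, 0.29, 0.11 and 0.03 in hyper pups and 0.67, 0, 0.28, 0.3 and 0.23 in hypo pups, where the ranges overlapped. The difference between hyper and hypo was -0.258 in males (SE 0.076, interval -0.418 to -0.097, adjusted p = 0.142) and -0.186 in females (SE 0.099, -0.396 to 0.024, adjusted p = 0.56), 1.2-fold and 1.14-fold lower in the hyper pups.

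Control pups had Zbtb20 levels of 0.58, 0.26, 0.31 and 0.25 in males and 0.32, 0.25, 0.42 and 0.46 in females. Against them, hyper was lower by -0.137 in males (adjusted p = 1, SE 0.076) and by -0.252 in females (SE 0.105, interval -0.474 to -0.03, adjusted p = 0.734). Hypo+ pups stood at 0.4, 0.46, 0.6 and 0.47 in males and 0.33, 0.18 and 0.5 in females. Hypo and hypo+ differed from control by 0.121 and 0.134 in males and -0.066 and -0.024 in females, without a value past the unadjusted threshold. Within slides, hyper was below hypo on 8 of 9 and below control on 7 of 8, by a mean of -0.22 and -0.21.

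With both sexes in a single fit, the Zbtb20 difference between hyper and hypo was -0.218 (SE 0.063), and it passed the adjusted threshold in limma (adjusted p = 0.0299), where 6.26% of all probes passed. With the first 2 digits of the pup number as a random block it was -0.221 (adjusted p = 0.0401, 5.52% of probes), and with scan day added -0.222 (adjusted p = 0.0227, 7.72%). No other member probe passed in these 3 fits. In the separate sexes the difference was -0.226 and -0.23 without the scan day that stood apart (adjusted p = 0.478 in males and 0.406 in females). The pancreatic-marker arrays were all of control or hypo+ pups. Leaving them out could not move this difference, only its estimated spread (adjusted p = 0.168 and 0.554 in limma). Zhx2, the homeobox repressor of Afp, was close to the limit of the array: its Cy5 signal was 90 to 115 and well above background on 13 of 34 arrays, with 0 of 5 hypo females among them. Its ratios all lay between -0.18 and 0.04, and no fold change is given for it.

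Alb, the adult counterpart, was not separated between any treatments. Its levels were 2.73, 4.73, 3.7 and 3.52 in control males, 3.9, 5.2, 4.1 and 3.73 in hypo males, 3.26, 4.72, 3.99, 3.6 and 3.48 in hyper males and 5.07, 3.89, 4.04 and 3.99 in hypo+ males. In females they were 3.74, 4.54, 3.61 and 3.79 in controls, 3.58, 4.64, 2.85, 3.92 and 4.1 in hypo, 3.62, 4.9, 3.43, 3.95 and 3.52 in hyper and 4.11, 4.63 and 4.01 in hypo+ pups. The groups overlapped throughout, and hypo differed from control by 0.562 in males (interval -0.314 to 1.437) and -0.101 in females (-0.804 to 0.602). These ratios carried little information on the liver RNA itself. The Cy5 signal of Alb varied only 1.3-fold between arrays, at 71.6 to 93.3% of the scanner's limit, while its reference signal varied 2.91-fold, so the ratio moved with the reference channel. On the scan day that stood apart, the mean Cy3 signal of Alb was 15000 against 22800 elsewhere, and the Cy5 signal 547000 against 523000.

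Igf2, the fetal growth factor, averaged 3.84 ± 0.51 in control, 4.23 ± 0.23 in hypo, 3.96 ± 0.41 in hyper and 4.2 ± 0.58 in hypo+ males by its 10-spot probe (SD), and 4.34 ± 0.25, 4.27 ± 0.48, 4.24 ± 0.44 and 4.44 ± 0.26 in females of the same order. All groups overlapped. Hypo differed from control by 0.392 in males (interval -0.212 to 0.995) and -0.075 in females (-0.577 to 0.427), with opposite signs. The 1-spot probe gave 0.424 (-0.073 to 0.92) and -0.15 (-0.624 to 0.323), with the same signs. With the Cy5 channel alone the female difference turned to 0.281 by the 10-spot probe and 0.502 by the 1-spot probe, and the male one was 0.662 and 0.861, each with an adjusted p of 1 in limma. Hypo+ exceeded control on 5 of 5 slides by the 10-spot probe (0.01 to 0.47) and on 4 of 5 by the 1-spot probe (-0.15 to 0.39), and the 10-spot differences of 0.36 in males and 0.097 in females did not pass.

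Gpc3, the proteoglycan, averaged 4.89 ± 0.36 in control, 5.15 ± 0.35 in hypo, 4.95 ± 0.38 in hyper and 5.19 ± 0.37 in hypo+ males (SD), and 5.06 ± 0.37, 5.06 ± 0.48, 5.05 ± 0.31 and 5.34 ± 0.42 in females. The female control, hypo and hyper means were nearly equal, and hypo differed from control by 0.262 in males (interval -0.232 to 0.755) and -0.006 in females (-0.515 to 0.503). Its reference signal was dim, at 42 to 87, and with normexp background correction the female difference was 0.411, and that between hyper and hypo males was -0.656 in place of -0.205. Dlk1, the hepatoblast marker, was the member below the reference on every array, from -2.51 to -1.79. Its group means lay between -2.24 and -2.13 in males and -2.24 and -2.07 in females, and hypo differed from control by 0.108 (interval -0.164 to 0.38) and 0.082 (-0.178 to 0.342). These intervals exclude a difference of more than 0.4 on the log2 scale between hypo and control in either direction in either sex.

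Several members differed more between the scan day that stood apart and the other days than between treatments. That day's arrays lay on slides used on no other day, so scan day and slide cannot be told apart. The 10-spot Igf2 probe lay at 4.52 to 5.04 on its 8 arrays and 3.42 to 4.4 on the other 26, and Gpc3 at 5.43 to 5.9 and 4.46 to 5.57. For Afp the means were 5.95 and 5.44 and for Zbtb20 0.23 and 0.34. The 10-spot Igf2 probe had a mean Cy5 signal of 101000 on that day and 74600 on the others, with Cy3 at 2910 and 2920. Every treatment and sex had 1 array on that day. For Alb and the 10-spot Igf2 probe that array was the highest of its group and widened the group's range. For Afp this did not hold in every group. Over the 26 arrays outside it, deviations of Igf2 and Alb from their group means had r = 0.73 (permutation p = 0.00168, adjusted over 21 pairs 0.0353) and rho = 0.65 (permutation p = 0.00389, adjusted 0.0817), with r = 0.7 without the 2 farthest arrays. Of the 21 pairs of members it was the only one with an adjusted permutation p of r under 0.05. Afp and Gpc3 had r = 0.52 (adjusted permutation p = 0.438), and 0.59 over all 34 arrays once scan days were centred (adjusted permutation p = 0.00945). Afp and Alb had r = -0.19, and Afp and its repressor Zbtb20 had r = 0.12. As Alb moved with its reference signal, the part of the reference channel in the Igf2 and Alb relation was not tested within these arrays. Over all 34 arrays Igf2 and Alb had r = 0.91 as ratios and r = -0.02 with the Cy5 channel alone. With that channel alone none of the 21 pairs passed.

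**Figure D4:**
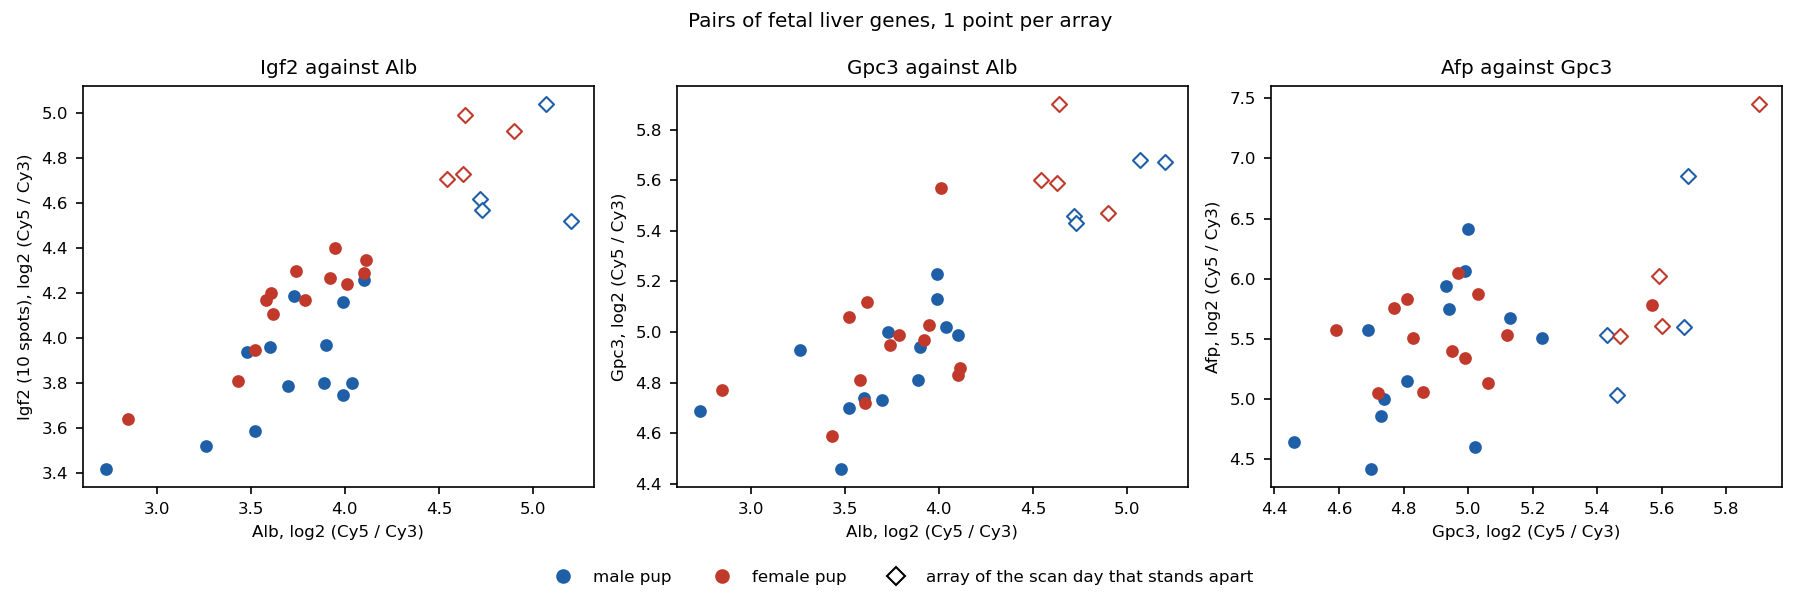
Igf2 against Alb, Gpc3 against Alb and Afp against Gpc3, each as log2 level with 1 point per array. Males are in blue, females in red, and open diamonds mark the arrays of the scan day that stood apart. Its 8 arrays lie at Alb levels of 4.54 to 5.2, clear of the other 26 at 2.73 to 4.11, whereas on the Afp axis the sets of arrays mix.

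The probes whose levels followed each member most closely over the 34 arrays, by Pearson's r of levels among 15699 probes, are given as a description, since all points share their arrays, scan days and reference. Afp was followed by Rbbp7 (r = 0.877), Soat1 (0.805) and Tmem40 (0.798), with 0.858 for Rbbp7 once the group means were removed. Alb was followed by other genes of secreted liver proteins at far higher values, Trf at 0.986, Apoe at 0.985 and Ahsg at 0.982. Igf2 was followed by Abcb4 (0.923) and Hbb-bt (0.918), and Gpc3 by Igfbp1 (0.87), Ctsh (0.869) and Serpina1d (0.869). Dlk1 had Aebp1 (0.876), Cdkn2a (0.851) and Fosl1 (0.842). For Zbtb20 the closest was Ubqln2 at 0.713 and for Zhx2 it was P3h3 at 0.597.

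Around the members, lists of related genes were read at 1 probe a gene in the same fits. The lists were chosen with earlier results of these data known. Their counts beside the shares of all probes are therefore a description and no independent test. Of 6 genes that respond to thyroid hormone, Dio1, Thrsp, Gpd2 and Me1 rose in hyper against hypo in both sexes, with Thrsp, a driver of lipogenesis, higher by 2.291 in males (adjusted p = 0.0047) and 2.755 in females (adjusted p = 3.25e-05). Thrsp was well above background on 3 of 4 hypo male and 4 of 5 hypo female arrays, so the size of its difference is less certain. Of 29 genes of the fetal hepatoblast list, 3 were lower in hyper than in hypo pups in each sex and none was higher, beside 1.37% of all probe names in males and 2.49% in females. They were the same genes in both sexes: Nqo1, a quinone reductase, and Krt18 and Krt8, the paired keratins of simple epithelia. The list's median difference was -0.07 in males and -0.09 in females, against -0.003 and -0.006 over all probes. Both list medians thus lay near 0 while these 3 genes moved. Nqo1 was -0.18, -0.04, -0.03 and -0.6 in hypo males and -1.52, -1.68, -1.61, -1.12 and -1.36 in hyper males. In females it was 0.01, -0.68, -0.41, 0.23 and -0.6 in hypo and -1.1, -1.2, -1.07, -1.43 and -1.64 in hyper pups, again without overlap. Nqo1 thus fell by 1.245 in males (adjusted p = 2.23e-05, SE 0.12) and by 1 in females (adjusted p = 0.00138, SE 0.157), 2.37-fold and 2-fold.

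Krt18 was lower by 0.803 (adjusted p = 0.0132, SE 0.158) in males and by 0.597 (adjusted p = 0.000688, SE 0.086) in females in hyper against hypo. The call was lost in males without hypo male 311. Mean Krt18 was -0.57 in control, 0.11 in hypo, -0.06 in hypo+ and -0.7 in hyper males, and -0.51, 0.02, -0.37 and -0.58 in females. Krt8 was lower by 0.67 (adjusted p = 0.0233, SE 0.143) and 0.446 (adjusted p = 0.0247, SE 0.102), and its call remained in 12 of 17 fits in males and 10 of 17 in females that left out a single array. Mean Krt8 was -0.32 in control, 0.24 in hypo, 0.1 in hypo+ and -0.43 in hyper males, and -0.34, 0.11, -0.22 and -0.34 in females. Leaving out an array of neither group compared cannot move a difference, only its estimated spread, so not all 17 fits test the difference. Each fit that lost the Krt8 call left out a hyper or hypo array. The same held for the Nfib, Onecut1, Cyp7a1 and Cd81 calls given below. Against control, where 0.104% of probe names passed in males and 0.155% in females, Nqo1 was higher in hypo males by 0.986 (adjusted p = 0.0102, SE 0.126), a call that had an adjusted p of 0.0963 without the scan day that stood apart and 0.0771 without the pancreatic-marker arrays. Krt18 was higher in hypo females by 0.53 (adjusted p = 0.0231, SE 0.092), and that call remained in 11 of 17 fits that left out a single array. Both keratins are also made by cholangiocytes, whose 8 markers averaged -1.61 to -0.99 over the arrays with 5 of them detected on every array, and no gene of that marker list passed. Whether Nqo1 and these keratins stood for a fetal state of the liver was not tested.

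Of 25 regulators of Afp and Alb, 1 rose and 1 fell in males in hyper against hypo, and 1 rose and 2 fell in females. Of all probe names, 1.37% passed in males and 2.49% in females in that comparison. Cebpb, a CCAAT enhancer binding protein, rose by 1.711 in males (adjusted p = 0.00502, SE 0.295) and 1.579 in females (adjusted p = 0.000185, SE 0.201), 3.27-fold and 2.99-fold. Its levels were -1.27, -0.6, -0.94 and -0.49 in hypo males against 0.53 to 1.24 in the 5 hyper males, and -1.04, 0.08, -0.66, -0.78 and -0.99 in hypo females against 0.78 to 1.08. Hypo+ also exceeded hypo in Cebpb, in a comparison where 0.37% of probe names passed in males and 0.569% in females, by 1.385 in females (adjusted p = 0.00758, SE 0.232) and 1.52 in males (adjusted p = 0.0434, SE 0.311), the male call remaining in 3 of 17 fits without a single array. Without the scan day that stood apart, the male value had an adjusted p of 0.0567 in limma. Nfib, a CCAAT-binding nuclear factor, fell by 0.281 in males (adjusted p = 0.0318, SE 0.063, remaining in 10 of 17) and 0.358 in females (adjusted p = 0.00917, SE 0.071). The male Nfib value had an adjusted p in limma of 0.0742 without the scan day and 0.0536 without the pancreatic-marker arrays. Onecut1, the hepatocyte nuclear factor HNF6, fell by 0.599 in females (adjusted p = 0.0192, SE 0.132, remaining in 12 of 17).

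Of 36 hepatocyte maturation genes, 1 rose in males and 2 in females in hyper against hypo, beside the shares of 1.37% and 2.49% of probe names. Cyp7a1, the rate-limiting enzyme of bile acid synthesis, was higher by 1.39 in males (adjusted p = 0.0196, SE 0.288) and 1.075 in females (adjusted p = 0.0301, SE 0.254, 0.116 without the scan day that stood apart), its call remaining in 13 and 12 of 17 fits without a single array. The list's medians were -0.16 and -0.02, while 4 of its genes were higher and none lower at an unadjusted p under 0.05 in each sex. Of all probes, 8.41% in males and 10.7% in females were under that p, in either direction. Of 9 genes of the albumin locus or regulated by Zhx2 or Zbtb20, none passed in males, while Elovl3, a fatty acid elongase, rose by 1.143 (adjusted p = 0.00133, SE 0.179) and Lpl, lipoprotein lipase, fell by 0.558 (adjusted p = 0.00591, SE 0.104, 0.0515 without the scan day) in females. Elovl3 was well above background on only 2 of 5 hypo female arrays, so the size of its difference is uncertain. It ran from 0.836 to 2.723 over the alternatives and the fits without a single array. Of 9 oncofetal genes, Igf2bp3, which binds Igf2 RNA, was lower in hyper than in hypo females by -0.389 (adjusted p = 0.0479, SE 0.099), remaining in 4 of 17 fits without a single array. Its adjusted p in limma was 0.114 without the scan day and 0.0566 without the pancreatic-marker arrays. Of 24 partners of Gpc3, IGF and Notch-like ligands, Cd81, a tetraspanin that binds Gpc3, was higher in hyper than in hypo males by 0.361 (adjusted p = 0.0256, SE 0.078, remaining in 11 of 17). None of the 19 imprinted genes passed by limma in any comparison. In hypo against control, 5.19% of all probes in males and 4.72% in females had an unadjusted p under 0.05, in either direction. Of the imprinted genes, 3 were higher at that level in each sex. Among them Grb10, an adaptor that restrains insulin and IGF signalling, differed by 0.484 in males (adjusted p = 0.551, SE 0.151) and 0.336 in females (adjusted p = 0.56, SE 0.11).

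**Figure D5:**
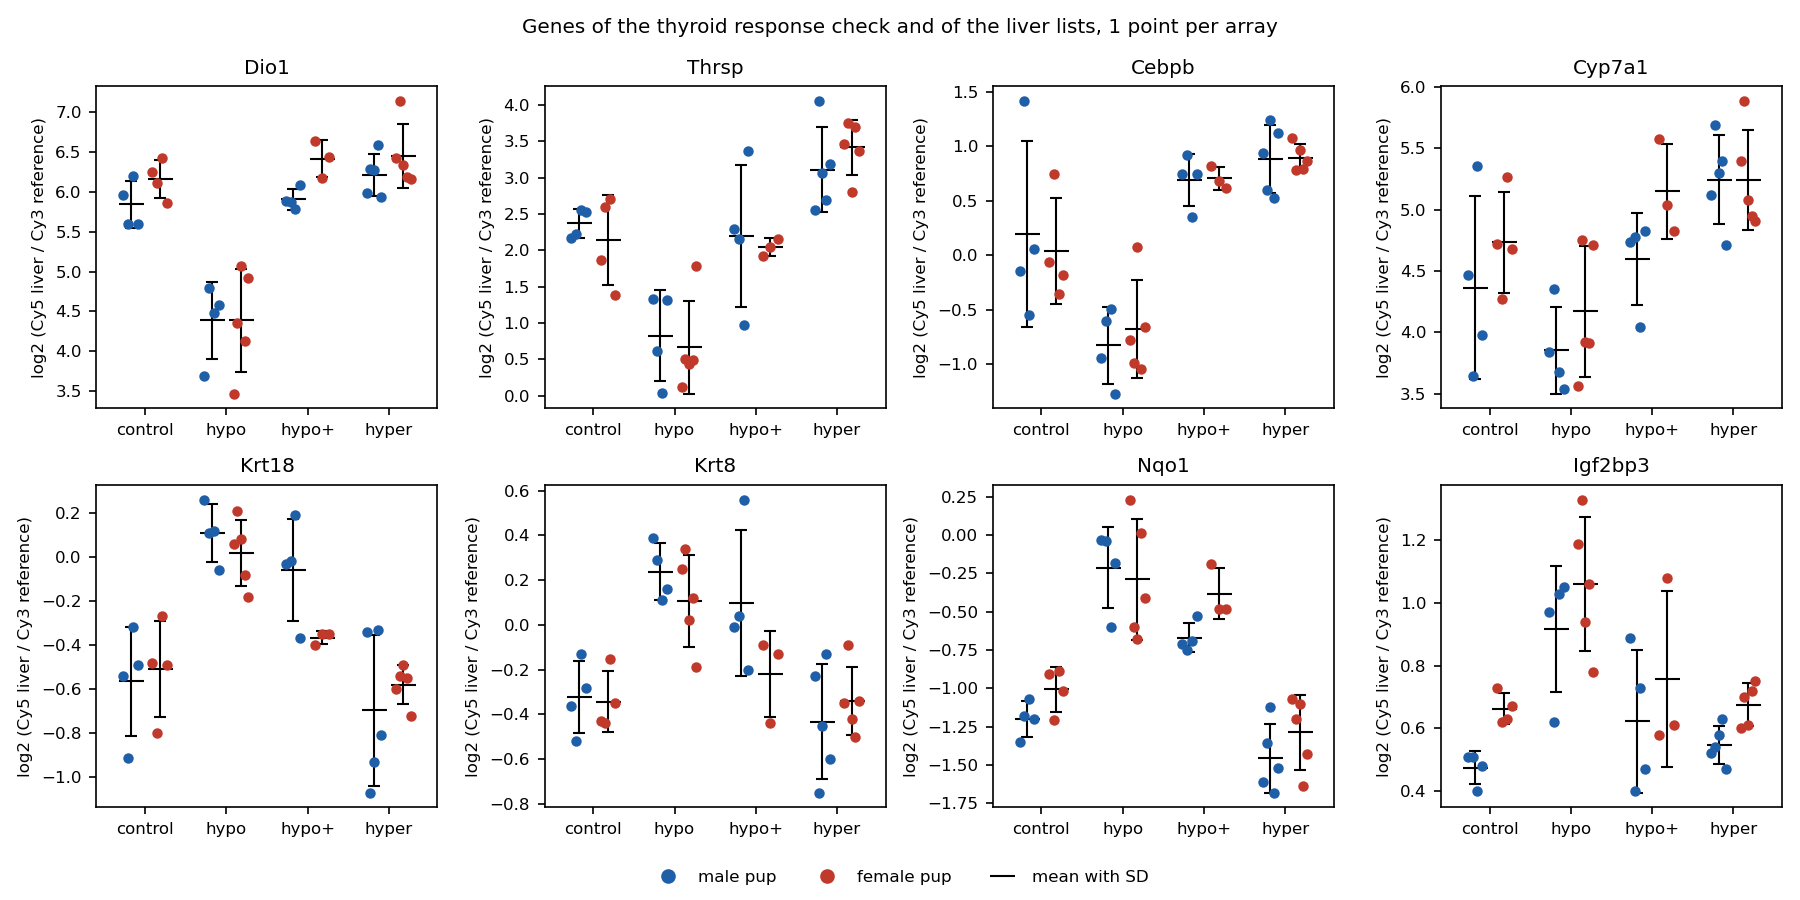
Level of 8 list genes on every array, as log2 of Cy5 liver over Cy3 reference, by treatment and sex, with the mean and SD. Dio1, Thrsp, Cebpb and Cyp7a1 are lowest in hypo pups, and Nqo1, Krt18, Krt8 and Igf2bp3 are highest there, with Nqo1 at -0.21 in hypo males and -1.46 in hyper males on average.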

How the data were processed

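Liver RNA of 34 mouse pups was measured on 2-colour Agilent arrays with a common reference. The authors deposited scanner tables from Feature Extraction 10.1.1.1 (version per the file headers), with Cy5 and Cy3 signal intensity per spot and a log10 ratio, together with a table of log2 ratios that the authors had normalized by loess. Correlation of those log2 values with the raw ratios was 0.846 to 0.995 and their column medians lay at -0.05 to -0.018. Liver RNA was in Cy5 on every array, with no dye swap. The authors removed 2 arrays per sex, and removed animals were not analysed here. Microarray depth is set by signal over background and the number of arrays.

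Median signals of non-control spots were normalized by loess within each array (limma 3.58.1, R 4.3.3) without background subtraction, and spots of a probe were averaged. Flagged spots (77 to 212 an array) were left out. Probes were named through the RefSeq accession (16806 of 33541 names matched). The coordinates in the files are of an older build than the reference table, so gene positions are not given apart from the promoters. Each sex was fitted apart with its 4 treatments in limma, since a male and a female may share a dam, with the Benjamini-Hochberg adjustment taken across the whole set of 41174 probes. The study's own permutation F test, in which each sub-array was a block of sample and reference, was replaced by this fit. Permutation tests used 100000 draws (scipy 1.17.1). List genes are named where they passed in any comparison or had the smallest p of a list without calls, and some items that this would name are not reported here. The members and lists were chosen with earlier results of these data known. The limma fit of hypo against control was tested on simulated male arrays with known changes and independent noise. The other steps were not tested in this way. The alternatives were slide, scan day, scaling, background correction, channel, a filter on dim probes, joint sexes and leaving out arrays.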

Additional observations from a re-analysis of the deposited data

Results flagged for a closer look

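In 7 of the 56 groups of member levels tested, the highest array stood clear of the others of its group by Dixon's criterion, which chance meets in about 1 in 20 groups. They were Afp in hypo female 721 (7.45), Alb in hypo+ male 546 (5.07), Gpc3 in control male 832 (5.43), hypo male 576 (5.67) and hypo female 721 (5.9), the 1-spot Igf2 probe in control male 832 (4.27), and Zbtb20 in control male 881 (0.58). All but the last came from the scan day that stood apart.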

How the results depend on the processing

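No paired analysis was possible because the animal numbers that serve as replicate numbers differ between groups, and slide and scan day were fitted as blocks in their place. No member probe passed in hypo against control, hyper against control, hypo+ against control or hypo+ against hypo in either sex under any of the 15 alternatives or without any single array. In hyper against hypo, 1 member probe (Zbtb20) passed in each of the 3 fits of both sexes together, against 0 in the separate fits. The paired Afp relation, r = 0.65, was 0.44 after centring within scan days, 0.66 after median centring and 0.66 over pairs scanned on different days, none past the adjusted threshold, 0.67 with the authors' values and 0.75 with Cy5 alone, both past it, and 0.59 to 0.8 without single pairs. Of the 21 member pairs, 4 passed over all 34 arrays, 8 with the authors' values, 7 after median centring, 0 within slides, 3 within scan days, 0 with Cy5 alone and 1 outside the scan day that stood apart. The cause of these shifts was not tested. Of the 80 member differences, 55 changed sign under some alternative, mostly those near 0. Over all probes, calls in hypo against control ranged from 0 (median centring) to 651 (both sexes, scan day and pup block) against 40 in males and from 8 to 651 against 64 in females, and in hyper against hypo from 62 to 3178 against 571 and from 201 to 3178 against 1031. In hyper against control they ranged from 1 to 522 against 31 and from 6 to 522 against 65, in hypo+ against control from 0 to 542 against 11 and 9, and in hypo+ against hypo from 6 to 1472 against 152 and from 31 to 1472 against 229. With 3 to 5 pups a group, the intervals on Afp differences within a sex spanned more than 1 log2 unit, Zhx2 was near background, and Alb was near the scanner's limit in Cy5.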

Other observations

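The 8 cycling-cell markers were lowest in the hypo+ pups, with mean log2 levels of -1.77 in males and -1.89 in females against -1.5 to -1.28 in the other groups. The median difference from control was -0.39 in males and -0.5 in females. At an unadjusted p under 0.05 in limma, 5 of 8 were lower in males and 7 of 8 in females, and 0 passed after adjustment over all probes. Of all probes, 7.56% in males and 4.79% in females were under that unadjusted p, in either direction. Among the members, hypo+ against control showed no value with an unadjusted p under 0.05 in either sex.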
